A study of Mus musculus with 6 samples.

Results

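Neutrophils store their antimicrobial proteins in granules that are filled in sequence as the cell matures in bone marrow. Primary (azurophil) granules are filled first, at the promyelocyte stage, with myeloperoxidase and serine proteases; secondary (specific) granules follow in myelocytes with lactoferrin and cathelicidin, and tertiary (gelatinase) granules come last, while calprotectin and related proteins collect in the cytosol. Many of these genes are transcribed mainly for a limited time, so their RNA in marrow relates to the stages of granulocyte maturation. Some are also known from monocytes and macrophages, so not every gene reads 1 stage. The set described here was a list of 32 genes grouped by this sequence, of which 30 were measured among 18193 genes in all. The primary list held 11 genes from Mpo to Gstm1, of which 10 were measured, and the later list of secondary, tertiary and cytosolic genes held 21, of which 20 were measured. Prss57, a serine protease of primary granules, and Retnlg, a resistin-like protein, were not named by a probe set with 1 gene symbol. Their RNA levels were not analysed here, and Retnlg enters only the counts of promoter sequences.

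The RNA came from femoral marrow of adult male and female mice, 3 to 6 months old, hemizygous for the transgene Tg(Ren1-GFP)2Kwg, in which renin gene sequences drive green fluorescent protein (GFP). In each of 3 sorts, marrow of 4 to 5 mice was pooled, and sorted (GFP-positive cells, n = 3) and presort (unsorted marrow, n = 3) samples of 1 number come from 1 pool. Both groups carry the transgene, so it does not differ between them, and the GFP gate let in 0.1% of autofluorescent cells from animals without it. Sorted cells also passed scatter gates against erythrocytes and debris and for single cells, which presort marrow did not. Values are log2 of the intensity of 1 probe set a gene, on Affymetrix 3' arrays normalized by the authors; the highest value on every array was 15.23. Fewer cells of a type and less RNA per cell cannot be told apart in such samples, and the intensity of different probe sets does not compare the RNA amounts of different genes.

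Every measured granule gene was lower in the sorted samples, at every stage of granule formation. All 30 members passed the test (limma, Benjamini-Hochberg adjusted p under 0.05 over all genes) with a lower value, against 18.1% of all genes tested that were called lower and 14.5% called higher. On the log2 scale the differences, sorted minus presort, ran from -3.89 for Chil1 to -0.69 for Ngp, with a median of -2.97 (7.83-fold lower), against a median of -0.0021 over all genes tested. Of the 30 members, 28 were at least 2-fold lower, 19 at least 4-fold and 15 at least 8-fold. In all 30 the 3 sorted arrays lay below the 3 presort arrays, as they did for 23.6% of all genes, and all 30 were lower in each of the 3 pools. The members were listed with earlier results of these arrays known, so these counts describe the list and are no independent evidence of its direction.

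**Figure D1:**
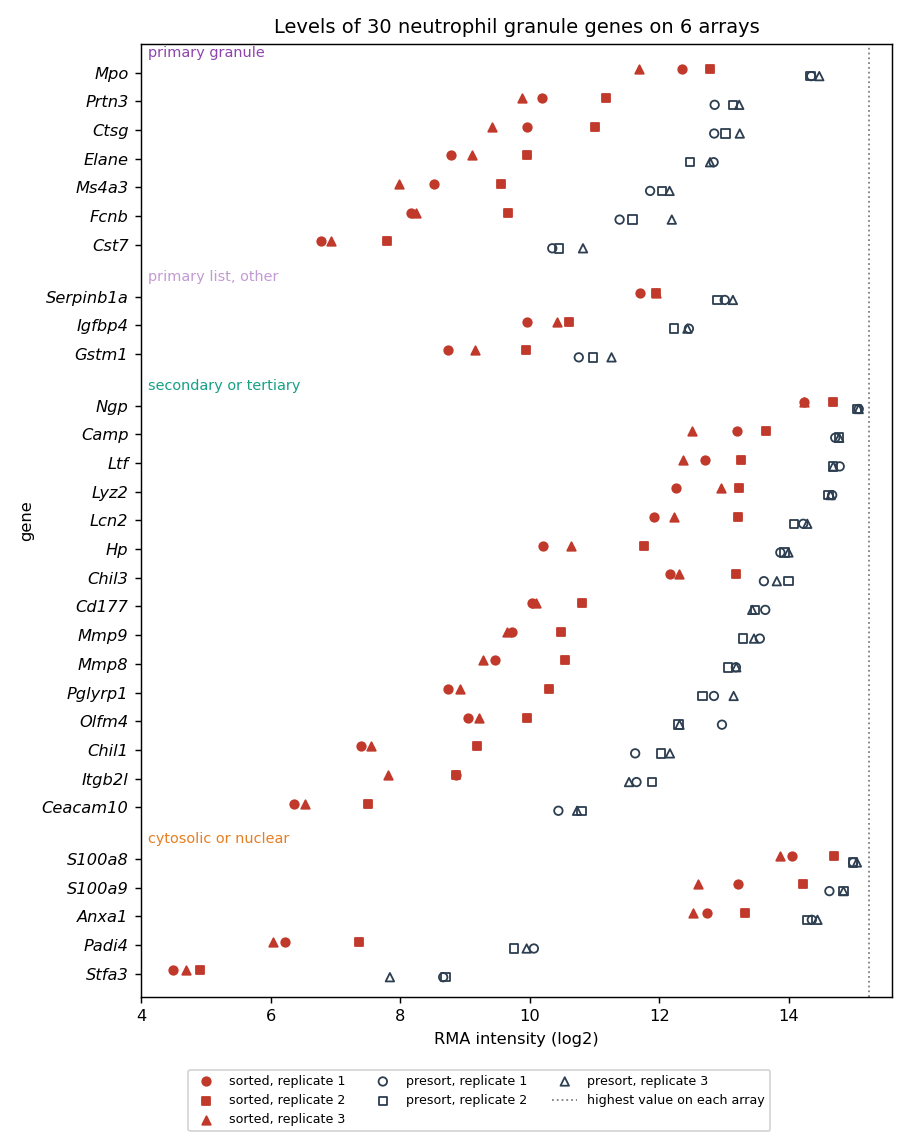
Log2 intensity of the 30 measured granule genes (rows, grouped by stage and sorted by presort level) on the 3 sorted arrays (filled red symbols) and the 3 presort arrays (open symbols), with 1 point an array. The sorted points of every gene lie to the left of its presort points, and Ngp and S100a8 lie nearest to the dotted line at the highest array value of 15.23.

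Libraries of the sorted group varied more than those of the presort group in these genes. The standard deviation over 3 arrays had a median of 0.59 in the sorted and 0.14 in the presort samples, and it was the larger one in the sorted samples for 29 of 30 members, the exception being Stfa3. The smallest presort standard deviations were those of Ngp (0.016) and Lyz2 (0.029), which lie near the array maximum. The part of a compressed scale in this spread was not tested, and the count was not set against all genes. Sorted replicate 2 was the highest sorted array for 28 of 30 members, the exceptions being Itgb2l and Serpinb1a, and pool 2 had the smallest fall for 28 of 30, here with Itgb2l and Stfa3 as exceptions. RNA quality differed too: for beta-actin the log2 signal at the 3' end minus that at the 5' end was 3.17, 1.54 and 1.43 on sorted arrays 1, 2 and 3, against 1.11, 0.95 and 0.81 on presort arrays 1, 2 and 3. The part of that difference in the results was not tested beyond a fit that takes it as a covariate, in which all 30 members stayed lower and 26 stayed called. Every sorted array lay above every presort array in this measure, so the fit does not fully separate RNA quality from sorting. For Gapdh the same measure was 3.84, 2.13 and 2.44 on sorted arrays 1, 2 and 3, against 1.99, 1.61 and 1.75 on presort arrays 1, 2 and 3. Scaling mattered little for the members. Over all 45101 probe sets the array medians were already almost equal. When each array was centred by its median over the 18193 genes tested, the median difference of all genes moved to 0.23. Then 5162 genes were called higher and 2576 lower, against 2629 and 3296 on the deposited scale. Under that centring 29 of 30 members were called lower with a median of -2.74.

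Promoter sequences of 4 members are shown because the members moved together and these stand at both ends of the set: Elane and Chil1 have the largest fall and Mpo and Ngp the highest presort intensity of the primary and the later list. Each window runs from 250 bases before to 50 after the gene's start, from RefSeq's annotation of GRCm38.p6, on the plus strand, which is that of all 4 genes. They lie at chr10:79886062-79886361 (Elane), chr11:87793534-87793833 (Mpo), chr1:134181906-134182205 (Chil1) and chr9:110419558-110419857 (Ngp). Capitals mark matches to TTNNGNAA, a pattern of the kind C/EBP factors bind, or to GAGGAA, of the kind PU.1 binds, on either strand; both factors are known to drive granule genes.
Elane: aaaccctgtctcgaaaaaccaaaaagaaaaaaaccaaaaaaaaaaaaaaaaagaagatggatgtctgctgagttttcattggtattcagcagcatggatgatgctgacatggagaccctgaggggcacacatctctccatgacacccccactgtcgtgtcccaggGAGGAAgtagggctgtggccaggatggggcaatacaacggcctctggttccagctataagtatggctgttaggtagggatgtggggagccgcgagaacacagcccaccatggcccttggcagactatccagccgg
Mpo: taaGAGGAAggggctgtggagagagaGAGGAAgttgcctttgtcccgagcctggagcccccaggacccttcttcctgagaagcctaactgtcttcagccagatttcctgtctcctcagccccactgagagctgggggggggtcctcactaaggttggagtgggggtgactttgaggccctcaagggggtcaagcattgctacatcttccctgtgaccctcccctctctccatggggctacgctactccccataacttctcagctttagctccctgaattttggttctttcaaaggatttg
Chil1: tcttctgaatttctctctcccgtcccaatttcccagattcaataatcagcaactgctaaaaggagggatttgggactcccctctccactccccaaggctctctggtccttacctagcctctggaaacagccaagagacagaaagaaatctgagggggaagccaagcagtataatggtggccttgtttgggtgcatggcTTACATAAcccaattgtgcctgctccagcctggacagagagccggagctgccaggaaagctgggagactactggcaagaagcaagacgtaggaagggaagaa
Ngp: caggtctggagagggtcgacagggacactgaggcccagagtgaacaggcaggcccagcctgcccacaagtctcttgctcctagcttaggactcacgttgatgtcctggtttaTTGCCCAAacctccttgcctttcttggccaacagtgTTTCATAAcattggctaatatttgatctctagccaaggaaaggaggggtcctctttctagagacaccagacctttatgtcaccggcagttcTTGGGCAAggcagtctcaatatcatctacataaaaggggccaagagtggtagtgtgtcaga

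The printed primary promoters held GAGGAA and the printed later ones the C/EBP-type pattern. Counted from the gene's start, Elane had 1 match to GAGGAA beginning at base -85, and Mpo had 2, at -247 and -224. Chil1 had 1 match to TTNNGNAA, at -52, and Ngp had 3, at -138, -102 and -11. Over the 28 members with a window, TTNNGNAA was found in 60.7% and GAGGAA in 57.1%, against 40.7% and 28.3% of the 27025 genes with a window of this length. The C/EBP-type pattern was in 14 of 19 later windows and 3 of 9 primary ones, and GAGGAA in 11 of 19 later and 5 of 9 primary windows. No match to the one overlapped a match to the other in any member, and a match of letters is no evidence of binding. Serpinb1a, Hp, Mmp9 and Prss57 had no window.

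The oxidant-forming and proteolytic core of primary granules was lower by 4-fold to over 10-fold. Mpo, the peroxidase that makes hypochlorous acid, stood at 12.35, 12.79 and 11.69 in sorted replicates 1, 2 and 3, against 14.35, 14.34 and 14.47 in presort replicates 1, 2 and 3. The groups did not overlap, and the difference was -2.11 ± 0.25 (SE, limma adjusted p = 0.000401), a 4.31-fold lower level. Elane, neutrophil elastase, stood at 8.79, 9.96 and 9.11 in sorted samples, against 12.84, 12.48 and 12.78 in presort samples. It had the largest fall of the primary list, at -3.41 ± 0.28 (10.7-fold lower, adjusted p = 6.7e-05), and its highest sorted array was over 2 log2 units below its lowest presort array. Prtn3, proteinase 3, which lies next to Elane on chromosome 10 in the mouse annotation, had 10.18, 11.17 and 9.87 in sorted samples, against 12.86, 13.13 and 13.23 in presort samples. Its difference of -2.66 ± 0.31 (6.34-fold lower, adjusted p = 0.000352) varied between pools, from -1.96 in pool 2 to -3.36 in pool 3. Ctsg, the granule protease cathepsin G, had 9.97, 11.01 and 9.42 in sorted samples, against 12.85, 13.02 and 13.24 in presort samples. Here too sorted replicate 2 was the highest sorted array, and the difference was -2.91 ± 0.36 (7.50-fold lower, adjusted p = 0.000493).

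Ms4a3, Fcnb and Cst7 of the primary list each fell by over 8-fold. Ms4a3, a membrane protein of granulocyte-monocyte progenitors, was at 8.52, 9.55 and 7.98 in sorted samples, against 11.86, 12.04 and 12.16 in presort samples, a difference of -3.33 ± 0.35 (SE, 10.1-fold lower). Fcnb, the lectin ficolin B, averaged 8.69 ± 0.84 in sorted and 11.72 ± 0.42 in presort samples (SD, n = 3 each) and fell by 3.03 on the log2 scale. Cst7, cystatin F, an inhibitor of cysteine cathepsins, averaged 7.17 ± 0.55 in sorted and 10.54 ± 0.25 in presort samples and fell by 3.37. Over these 3 genes the adjusted p of limma ran from 5.67e-05 for Cst7 to 0.000721 for Fcnb.

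The smallest falls of the primary list were those of Serpinb1a, Gstm1 and Igfbp4. Serpinb1a, a cytosolic inhibitor of elastase, proteinase 3 and cathepsin G, was at 11.70, 11.95 and 11.95 in sorted samples, against 13.01, 12.90 and 13.14 in presort samples. Its fall of 1.15 ± 0.12 (SE, log2, 2.22-fold, limma adjusted p = 0.000238) was the smallest of the list and the most even over the pools, from -1.31 in pool 1 to -0.95 in pool 2. Gstm1, a glutathione transferase, stood at 8.74, 9.94 and 9.15 in sorted samples, against 10.76, 10.98 and 11.26 in presort samples, a difference of -1.72 ± 0.29 (SE). Igfbp4, which binds insulin-like growth factors, averaged 10.33 ± 0.33 in sorted and 12.37 ± 0.13 in presort samples (SD, n = 3 each), a difference of -2.05 ± 0.18 (SE). The median over these 3 was -1.72, against -3.03 over the other 7 measured members of the primary list, a difference that was not tested.

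Secondary granule genes with very bright probe sets kept high intensities in the sorted samples. Ltf, lactoferrin, which binds iron, stood at 12.71, 13.26 and 12.37 in sorted samples, against 14.79, 14.69 and 14.69 in presort samples, a difference of -1.94 ± 0.21 (SE, 3.84-fold lower, limma adjusted p = 0.000267). Camp, the precursor of the cathelicidin antimicrobial peptide, stood at 13.20, 13.65 and 12.50 in sorted samples, against 14.72, 14.78 and 14.78 in presort samples, a difference of -1.64 ± 0.26 (3.11-fold lower). Both were lower in each pool, and for both the 3 sorted arrays lay further apart than the 3 presort arrays. Ngp, neutrophilic granule protein, related to the cathelicidins, stood at 14.23, 14.69 and 14.23 in sorted samples, against 15.08, 15.05 and 15.08 in presort samples. Its presort mean lay 0.16 below the highest value of the arrays, and its difference of -0.69 ± 0.15 (1.61-fold lower, adjusted p = 0.0077) was the smallest of all members; the call was lost without pool 3 (adjusted p = 0.0984) and with the beta-actin covariate (0.0727). Lcn2, lipocalin 2, which captures bacterial siderophores, stood at 11.92, 13.22 and 12.23 in sorted samples, against 14.22, 14.08 and 14.29 in presort samples. Its difference of -1.74 ± 0.30 was -0.86 in pool 2 and -2.31 in pool 1, and without pool 3 it was -1.59 and missed the threshold (adjusted p = 0.0523).

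A further 6 secondary and tertiary granule genes, Hp, Mmp8, Mmp9, Pglyrp1, Olfm4 and Chil1, fell by 8.35-fold to 14.9-fold. Hp, haptoglobin, which binds free haemoglobin, stood at 10.20, 11.76 and 10.64 in sorted samples, against 13.87, 13.93 and 13.99 in presort samples, a difference of -3.06 ± 0.35 (SE, 8.35-fold lower, limma adjusted p = 0.000324). The collagenase gene Mmp8 stood at 9.47, 10.54 and 9.28 in sorted samples, against 13.18, 13.06 and 13.19 in presort samples (-3.38 ± 0.30, 10.4-fold lower). Mmp9, gelatinase B, the defining enzyme of tertiary granules, stood at 9.72, 10.48 and 9.64 in sorted samples, against 13.55, 13.29 and 13.46 in presort samples. Its difference of -3.49 ± 0.22 (11.2-fold lower) had the lowest adjusted p of all members, 2.59e-05, and its other probe set gave -3.48. Pglyrp1, which binds bacterial peptidoglycan, averaged 9.32 ± 0.85 in sorted and 12.89 ± 0.24 in presort samples (SD, n = 3 each), a difference of -3.57, and Olfm4, olfactomedin 4, known to mark a subset of neutrophils, averaged 9.41 ± 0.49 in sorted and 12.53 ± 0.38 in presort samples, a difference of -3.12. Chil1, a chitinase-like protein of specific granules, stood at 7.40, 9.19 and 7.54 in sorted samples, against 11.63, 12.03 and 12.16 in presort samples. This was the largest fall of all members (-3.89 ± 0.44, 14.9-fold lower, adjusted p = 0.000313) and also the one with the widest sorted arrays, with a standard deviation of 0.99.

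Genes for surface and secreted proteins of maturing neutrophils moved the same way. Cd177, a surface glycoprotein that is also held in specific granules, stood at 10.03, 10.81 and 10.10 in sorted samples, against 13.64, 13.47 and 13.44 in presort samples, a difference of -3.20 ± 0.21 (SE, 9.19-fold lower, limma adjusted p = 2.75e-05). Itgb2l, an integrin beta chain like that of the leukocyte integrins, stood at 8.86, 8.86 and 7.81 in sorted samples, against 11.65, 11.89 and 11.53 in presort samples, a difference of -3.18 ± 0.28, and it was the only member with its smallest fall in pool 1. Ceacam10, of the carcinoembryonic antigen family, averaged 6.80 ± 0.62 in sorted and 10.66 ± 0.19 in presort samples (SD), a difference of -3.86 (14.5-fold lower), close in size to that of Chil1.

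Lyz2 and Chil3 are also known from monocytes and macrophages. Lyz2, lysozyme, stood at 12.26, 13.22 and 12.95 in sorted samples, against 14.67, 14.61 and 14.65 in presort samples, a difference of -1.83 ± 0.23 (SE, limma adjusted p = 0.000517). Its near-identical neighbour Lyz1, whose RNA its probe set may also read, stood at -0.67 with a presort mean of 14.94. Chil3, a chitinase-like protein, stood at 12.17, 13.18 and 12.31 in sorted samples, against 13.62, 13.99 and 13.81 in presort samples, a difference of -1.25 ± 0.26 (2.39-fold lower, adjusted p = 0.00694). Its call was lost without pool 3 (-1.13, adjusted p = 0.0879) and with the beta-actin covariate (-0.90, 0.0809), and a further probe set shared with its paralog Chil4 was not used.

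The 5 cytosolic or nuclear members had differences from -3.71 for Stfa3 to -0.81 for S100a8. S100a8 and S100a9 encode the subunits of calprotectin, which binds calcium and withholds metal ions from microbes. S100a8 stood at 14.05, 14.70 and 13.87 in sorted samples, against 14.99, 14.99 and 15.05 in presort samples, a difference of -0.81 ± 0.21 (SE, 1.75-fold lower, limma adjusted p = 0.0183), with its presort mean 0.22 below the array maximum. S100a9 stood at 13.22, 14.22 and 12.59 in sorted samples, against 14.63, 14.84 and 14.84 in presort samples, a difference of -1.42 ± 0.36 (adjusted p = 0.0169). These were the least secure calls of the set: both missed the threshold without presort replicate 2 or 3 (adjusted p of 0.0569 and 0.0647 for S100a8, 0.0587 and 0.0592 for S100a9), without pool 1 (0.095 and 0.0779), without pool 3 (0.155 and 0.104) and with the beta-actin covariate (0.132 and 0.103). S100a8 also missed it without sorted replicate 3 (0.0545), with median centring (0.0545) and with quantile normalization over genes (0.0891). Anxa1, annexin A1, an inhibitor of leukocyte recruitment, averaged 12.86 ± 0.42 in sorted and 14.36 ± 0.08 in presort samples (SD), a difference of -1.50. Padi4, the enzyme that citrullinates histones when neutrophils release chromatin traps, stood at 6.23, 7.36 and 6.04 in sorted samples, against 10.06, 9.76 and 9.95 in presort samples, a difference of -3.38 ± 0.32 (10.4-fold lower). Stfa3, a stefin inhibitor of cysteine proteases, stood at 4.49, 4.90 and 4.69 in sorted samples, against 8.66, 8.70 and 7.84 in presort samples, a difference of -3.71 ± 0.24 (13.1-fold lower). Its sorted level lay in the dim part of the scale, with 82.6% of genes brighter on the sorted arrays, where intensities understate a fall.

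**Figure D2:**
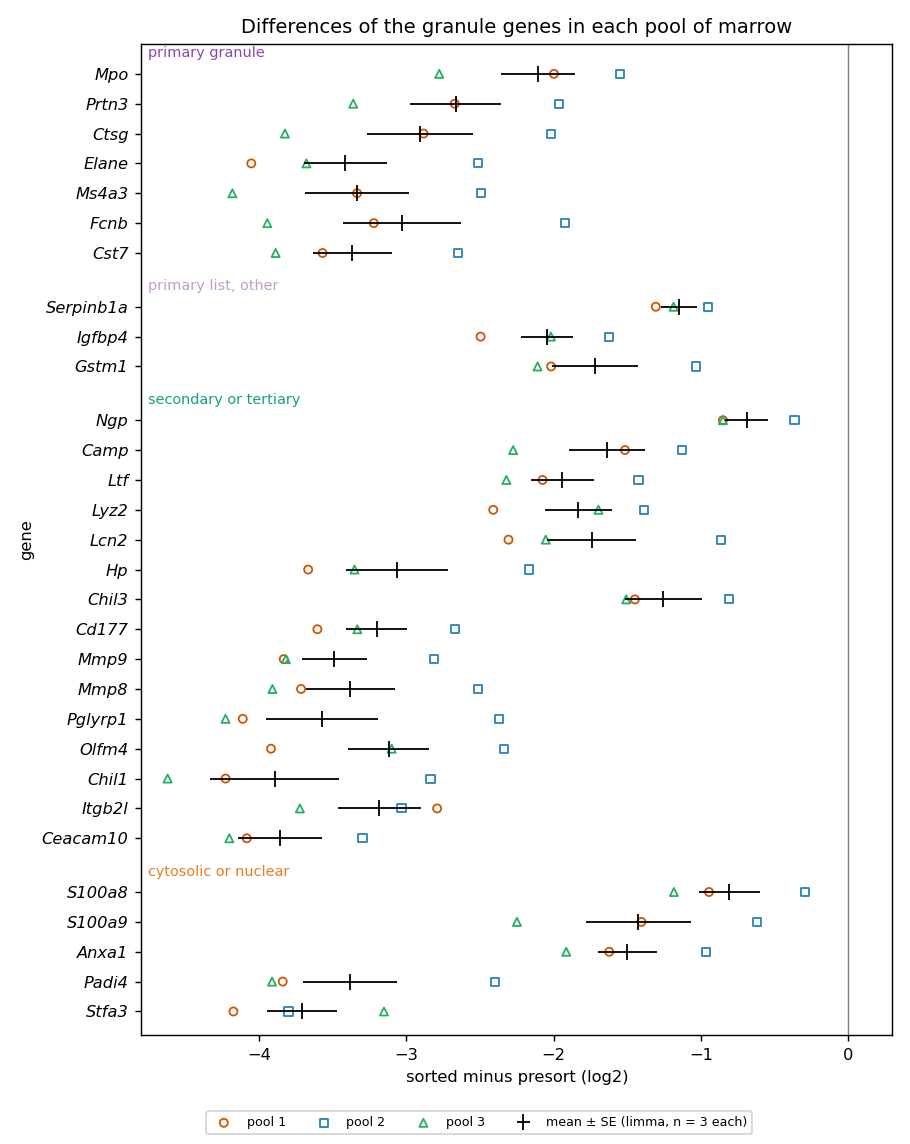
Difference, sorted minus presort (log2), of each granule gene in each of the 3 pools of marrow (open symbols), with the mean and standard error of the limma fit (black). All points lie below 0, and pool 2 (squares) gave the smallest fall for 28 of 30 genes.

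Primary and later granule genes did not part in a settled direction. The median difference was -2.79 over the 10 measured primary members and -3.09 over the 20 later members, so that the primary median was higher by 0.30. In pools 1, 2 and 3 the primary median was -2.78, -1.94 and -3.52, and the later median was -3.20, -2.25 and -3.13. The primary minus later difference was therefore 0.42 in pool 1, 0.31 in pool 2 and -0.39 in pool 3, a spread between pools that is larger than the difference itself. Its sign also turned without pool 1 (-0.052) and with the mean of each gene's probe sets (-0.62), and without the members of a presort mean of 12 or more it was 0.68, over 3 primary and 5 later members. Without Serpinb1a, Igfbp4 and Gstm1 it was 0.061. Pool 3 gave the largest fall for 19 of the 30 members and pool 1 for 11. Splitting the later list, the 15 measured secondary or tertiary members had a median of -3.12 and the 5 cytosolic or nuclear members one of -1.50; presort brightness differed with it, at medians of 13.52 and 14.36.

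The size of the fall was also set against the presort brightness of the probe set. Across the 30 members the difference correlated with the presort mean at a Pearson r of 0.66 and a Spearman rho of 0.68, brighter members having the smaller falls. This is a description across genes that share the same 6 arrays, and the presort mean enters both measures. Within pools 1, 2 and 3 the r was 0.62, 0.71 and 0.53. It was 0.76 over the 20 later members and 0.27 over the 10 primary members. Below a presort mean of 12 it was 0.20 over 8 members, and at 12 or more it was 0.69 over 22. Averaging all probe sets of a gene brought it down to 0.19.

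By band of presort log2 intensity, the members' falls were smallest at the top of the scale. The 2 members between 8 and 10 had a median difference of -3.55. The 6 members between 10 and 12 had a median difference of -3.27, the 13 between 12 and 14 one of -3.12, and the 9 at 14 or more one of -1.64. In the top band no member fell by more than 2.11, whereas between 12 and 14 the range was -3.57 to -1.15. The members at 14 or more were Mpo, Ltf, Camp, Ngp, Lcn2, Lyz2, Anxa1, S100a8 and S100a9, 1 of them from the primary list and 8 from the later list. Mpo had the largest fall of these 9, at -2.11, against a median of -1.57 over the 8 later ones. Below 14 the order of the lists was the other way round. The medians were -2.79 over 6 primary and -3.20 over 7 later members between 12 and 14, and -3.03 over 3 primary and -3.86 over 3 later members between 10 and 12.

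Other genes of this brightness were set beside the members. Of 48 genes with a presort mean of 14 or more, 20 were called lower, among them the 9 members, and the largest fall was that of Ctse at -2.15, next to Mpo. Between 12 and 14 the largest fall was -3.84, among 293 genes called lower, so these extremes come from groups of unequal size. The median difference of all genes called lower, members included, was -1.26 between 12 and 14 and -1.36 at 14 or more. With 9 members among the 20 genes of the top band, the -1.36 is not a value of other genes alone. The genes there that are not members ran from -2.15 for Ctse to -0.42 for Tent5c. Across the 3296 genes called lower the r of difference with brightness was -0.24, opposite in sign to that of the members. Of these genes 858 had a presort mean under 8, where no member lies. The correlations thus cover unlike ranges of brightness and cannot be set against each other. Bright genes were called lower more often than others: 42.3% of the 740 genes at 12 or more were called lower, beside 22 of the 22 members of that brightness. A compressed scale and a smaller fall in RNA cannot be told apart for the brightest members from these intensities.

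**Figure D3:**
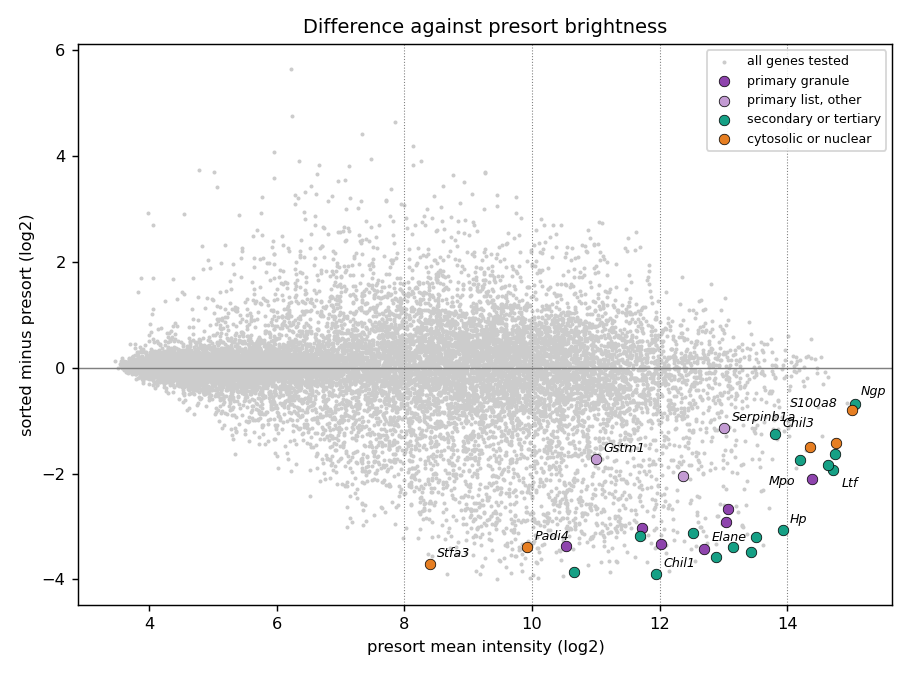
Difference, sorted minus presort (log2), against presort mean intensity (log2) for all 18193 genes (grey) and the 30 granule genes (coloured by stage), with dotted lines at 8, 10, 12 and 14. Most members lie along the lower edge of the cloud up to 14, and the 9 members beyond it lie between -2.11 and -0.69.

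Ranks within an array gave the same direction, but they are no separate check on the intensities. The 6 arrays shared their lowest and highest values and almost their median, so level and rank move together. Of all genes, 3.40% were brighter than Mpo on the sorted arrays on average and 0.0934% on the presort arrays. For Elane these shares were 26.1% and 2.00%, for Chil1 38.5% and 4.49%, and for Hp 11.5% and 0.308%. Ngp was the brightest gene on every presort array, and on the sorted arrays 0.0934% of genes were brighter. S100a8 had 0.191% of genes above it on the sorted and 0.0055% on the presort arrays on average, but in pool 2 it ranked 2 on both arrays. The members with the smallest falls thus lost places on average, though not in every pool.

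Several probe sets for a gene gave different sizes of fall in some members. Of the 30 members 7 had several probe sets, and 3 (Igfbp4, Gstm1 and S100a8) were read by a probe set that can match several transcripts. The other probe set of Serpinb1a gave -1.22 beside -1.15, and that of Anxa1, at means of 6.77 in sorted and 8.99 in presort samples, gave -2.22 beside -1.50. The 6 probe sets of Igfbp4 ran from -3.26 to -0.21, the smallest difference being at means of 6.72 in sorted and 6.93 in presort samples. A second Igfbp4 probe set with a high signal, at 9.94 in sorted and 12.71 in presort samples, gave -2.76 beside the -2.05 of the one used. The 4 probe sets of Gstm1 ran from -1.75 to -0.30. For Itgb2l the 2 unused probe sets stood near the bottom of the scale, at 5.16 and 5.35 in sorted and 5.23 and 5.19 in presort samples, with differences of -0.07 and 0.16. Of the other probe sets of Ceacam10, 1 gave -3.46 and 1, at 4.64 in sorted and 4.49 in presort samples, gave 0.15. With the mean of probe sets the later median was -2.16, and all 30 members were still called lower.

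Other genes of neutrophil granules and membranes, from a list outside the members, were lower as well. Of 26 listed genes 19 were measured, and 17 were called lower (median -2.59, limma adjusted p under 0.05 over all genes), against 18.1% of all genes called lower. The list's median presort level was 11.46, and 35.9% of all genes with a presort mean between 10 and 12 were called lower. Itgam, the CD11b integrin chain stored in granule membranes, stood at -3.97 ± 0.27 (SE), Slc11a1, a metal ion transporter of phagocyte vesicles, at -3.40 ± 0.18 and Stfa2l1, a stefin like Stfa3, at -3.34 ± 0.22. Lyz1, with the highest mean, stood at -0.67. Its probe set can match several transcripts and may also read the near-identical member Lyz2, so it is not clearly a separate gene here. The genes not called were Alpl, an alkaline phosphatase, at 0.21, with means of 6.31 in sorted and 6.10 in presort samples, and Mme, a membrane peptidase, at -0.02, with means of 4.38 in sorted and 4.40 in presort samples. With the arrays centred by their medians over the genes tested 16 were called lower and Alpl higher.

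Among genes that package and process granule proteins, 7 of 15 were called lower and the other 8 were not called, with a median of -0.42. Of all genes 18.1% were called lower, but the list was bright, with a median presort level of 12.22. Among all genes with a presort mean of 12 or more the share called lower was 42.3%, near that of the list. Nbeal2, needed for the granules of neutrophils and platelets, stood at -2.72 ± 0.12 (SE, limma adjusted p = 1.5e-05), Lyst, the lysosomal trafficking regulator, at -1.74 and Hexa, a lysosomal enzyme, at -1.32. Srgn, the proteoglycan serglycin on which granule proteases are packed, was the brightest and stood at -0.14 ± 0.12 (adjusted p = 0.477), with means of 13.37 in sorted and 13.51 in presort samples. Ctsc, the peptidase that activates elastase, proteinase 3 and cathepsin G, named here after its value was seen, stood at 0.12 ± 0.17 (adjusted p = 0.666). With the arrays centred by their medians over the genes tested 6 of the 15 were called lower and 2 higher, the trafficking genes Ap3b1 and Vps13b.

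Genes of granule release were called lower more often than higher. Of 18 listed genes 17 were measured, 11 of them called lower and 2 higher (median -0.81). Of all genes tested 18.1% were called lower and 14.5% higher. The list's median presort level was 10.21, and 35.9% of all genes with a presort mean between 10 and 12 were called lower. Rab3d stood at -2.96 ± 0.15 (SE), Fgr, a kinase in integrin signalling of myeloid cells, at -2.84 ± 0.21 and Rab27a, a GTPase of granule docking, at -2.50 ± 0.14. Rac2, a GTPase of haematopoietic cells with the highest mean, stood at -0.69. The 2 that rose, named after their values were seen, were Stxbp3 at 0.57 and Stx4a at 0.43. With the arrays centred by their medians over the genes tested 10 were called lower and 4 higher, Vamp2 and Vamp7 being added to these 2.

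The transcription factor genes of granulocyte formation split into those that fell and those that rose. Of 10 listed genes 9 were measured, 5 called lower and 3 higher, counts that were the same with median centring and with quantile normalization over genes. Of all genes tested 18.1% were called lower and 14.5% higher. The list's median presort level was 10.17, and 35.9% of all genes with a presort mean between 10 and 12 were called lower. Cebpd stood at -3.50 ± 0.17 (SE), Klf5 at -3.13 ± 0.19 and Cebpa, needed for the first steps of granulocyte commitment, at -1.87 ± 0.21. Myb, which keeps progenitors of several blood lineages immature, had the highest mean and stood at 1.10 ± 0.15 (limma adjusted p = 0.000855), at 14.06 in sorted and 12.96 in presort samples. Ets1 at 1.32 and Runx1 at 0.64, named here after their values were seen, also rose. Gfi1, which granulocytes and B lineage progenitors both need, was not called at -0.18 (adjusted p = 0.738), and Cebpe was not measured.

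**Figure D4:**
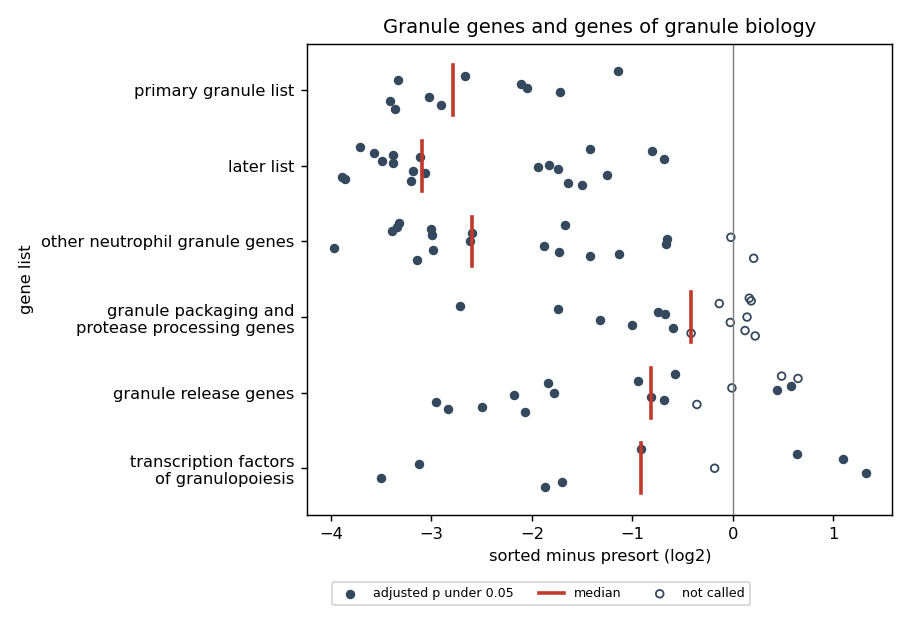
Difference, sorted minus presort (log2), of each measured gene in the 2 granule lists and in the 4 lists of other granule genes (filled points passed the test, open points did not, red bars are medians). The 2 granule lists lie wholly below 0, and the packaging, release and transcription factor lists reach above it.

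Markers of neutrophils and most markers of macrophages and monocytes moved with the granule genes. Of 7 listed neutrophil markers 5 were measured and all 5 were called lower (median -2.72), with Csf3r, the receptor of granulocyte colony-stimulating factor, at -3.43 and Trem1, which also stands in the list of other granule genes, at -1.67. Their median level was 7.67, 8.93 and 7.61 on sorted arrays 1, 2 and 3, against 10.04, 10.53 and 10.68 on presort arrays 1, 2 and 3. Sorted array 2 was highest in these markers as it was in the primary list (9.37, 10.28 and 9.29 on sorted, 12.65, 12.35 and 12.61 on presort arrays) and in the later list (10.12, 11.28 and 10.37 on sorted, 13.63, 13.70 and 13.64 on presort arrays). Macrophage markers, all 6 lower, had their highest sorted level on array 2 as well (6.49, 7.88 and 7.26 on sorted, 9.39, 10.12 and 10.19 on presort arrays), while monocyte markers, 5 of 6 lower, were highest on sorted array 3 (8.27, 8.75 and 9.57 on sorted, 11.57, 11.49 and 11.71 on presort arrays). Ly86, the monocyte marker with the highest mean, went the other way at 0.35 and was not called (limma adjusted p = 0.0611). With median centring it was called higher.

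Eosinophil markers were lower for 5 of 6 genes, basophil and mast cell markers for 5 of 5 and erythroid markers for 5 of 5 measured genes, with medians of -3.20, -2.82 and -1.26. B lineage markers were called higher for 7 of 7 measured genes (median 2.50), with Cd79b at 2.57 and Rag1 at 2.75. The 4 measured T cell markers were not called, at a median of -0.23, and their median levels lay between 6.29 and 6.87 on sorted and 6.54 and 6.92 on presort arrays. The median of the B lineage markers was 12.34, 12.61 and 12.87 on sorted arrays 1, 2 and 3, against 10.98, 9.69 and 9.66 on presort arrays 1, 2 and 3. The part of neutrophils or other cells that passed the gate in these values was not tested.

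**Figure D5:**
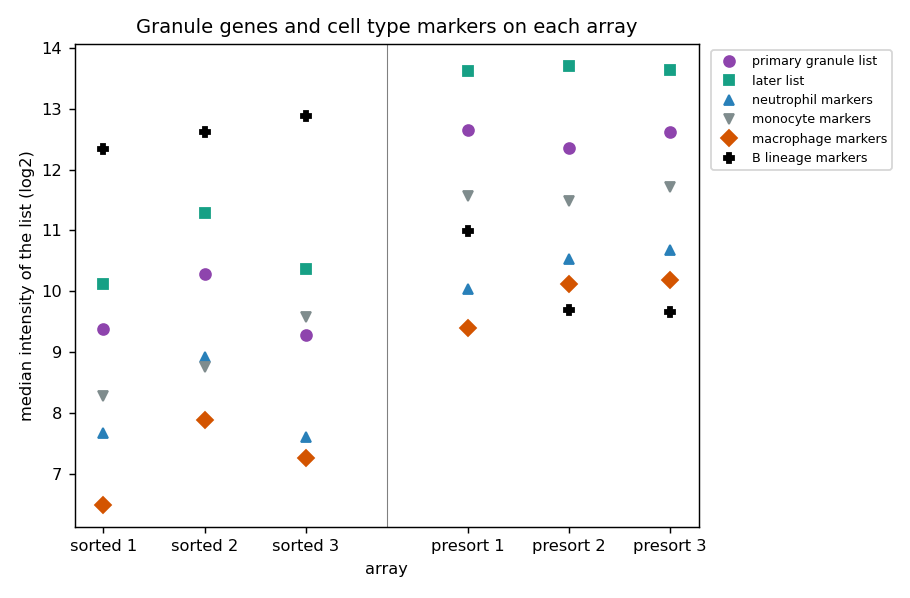
Median log2 intensity of the primary and later granule lists and of the markers of 4 cell types on each of the 3 sorted (left) and 3 presort arrays (right). Both granule lists and the neutrophil markers are highest on sorted array 2 among the sorted arrays and lie below all presort arrays, and the B lineage markers run the other way.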

How the data were processed

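RNA of 6 mouse marrow samples was read on Affymetrix 3' arrays after amplification and biotin labelling from the 3' end, per the labels' protocols. The deposited values are linear-scale intensities made by the authors with RMA, per the submitters' processing notes, and log2 of them was taken with no pseudocount. Of 45101 probe sets 34945 carried 1 gene symbol; that with the highest mean over 6 arrays stood for each of 18193 genes. Any 2 arrays had at most 68 values in common. Symbols come from the platform's annotation, promoters from RefSeq (28 of 32 members matched).

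The test was limma 3.58.1 under R 4.3.3 (two-sided, 4 residual degrees of freedom before moderation, Benjamini-Hochberg over all genes, threshold 0.05, no filter on dim genes), and the steps were tested on simulated data. Figures used matplotlib 3.10.9. Lists got counts and medians, with no list test. Every member is named; of other lists the 3 largest called differences and the brightest gene, and other genes are said to be chosen later or stand for a result that turns on them.

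The labels put same-numbered samples in the same pool, which pairs them; their deviations from the group means correlated with r of 0.39 (pool 1), 0.20 (pool 2) and -0.03 (pool 3). A fit blocked on this number was 1 of the alternatives. The members, lists and tests were chosen with earlier results of these data known. Protein sequences were not used here. The number of arrays limits the precision.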

Additional observations from a re-analysis of the deposited data

How the results depend on the processing

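Over 19 alternatives (18 for S100a8, whose single probe set ends in _s_at) no member changed sign and 25 of 30 members kept their call in every one; the 5 that lost it somewhere were Ngp, Lcn2, Chil3, S100a8 and S100a9. The fit with the replicate block called all 30 members and changed no member's call, with 2860 genes higher and 3548 lower. Leaving out 1 array or 1 pool gave 1544 to 2608 higher and 2362 to 3256 lower genes, 10 primary and 15 to 20 later members lower, medians of -3.20 to -2.38 (primary) and -3.38 to -2.74 (later), a primary minus later difference of -0.052 to 0.53 and an r with brightness of 0.61 to 0.69; the lowest count of members came without pool 3 (25 of 30, against 28 without pool 1 and 30 without pool 2), and the reversal (-0.052) without pool 1. With the mean of probe sets the later median was -2.16, the primary minus later difference turned to -0.62 and the r was 0.19, dim probe sets entering the mean. Centring each array on its median over the genes tested gave 5162 higher genes. With 32 intensity units added the r was 0.54. Without members of a presort mean of 12 or more the later median was -3.71, the primary minus later difference 0.68 and the r 0.20, on 8 members. The beta-actin covariate left 26 members called, with medians of -2.48 and -2.66. The cause of the other shifts was not tested. Dim values, near the bottom of the scale as for Stfa3 in sorted samples, understate a fall, and values near the top may do so too.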
